A study of Mus musculus with 6 samples.

Results

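The comparison follows tetraploid (4n) cardiomyocytes (CMs), the contracting cells of the heart, across birth in the mouse, from embryonic day 16.5 (E16.5-4n) to postnatal day 1 (P1-4n). Levels given at E16.5 and at P1 without a ploidy are those of these libraries. A cell was kept as a CM when it held at least 1 UMI of each of the 4 transcripts Tnni3, Tnnt2, Actc1 and Tnnc1, where a unique molecular identifier (UMI) marks 1 captured RNA molecule. This kept 4880 of 4988 cells in E16.5-4n (97.8%) and 4747 of 4777 in P1-4n (99.4%), 9627 CMs out of the 31156 cells deposited for the series. All animals were untreated C57BL/6J mice without a transgene, and the 6 libraries covered diploid (2n) and tetraploid CMs of the left ventricle at E16.5, P1 and P5. Dissociated cells were fixed in methanol, rehydrated, stained for the CM protein MYH1 and for DNA with Hoechst, and sorted by DNA content, so that a 4n cell may be a cycling mononucleated CM past its S phase, a resting polyploid CM or a binucleated CM. Cells of separate sorts of several litters were pooled before each library, which leaves 1 library per group and no replicate. No test between the groups was therefore made, and every interval given covers only the counting of UMIs or of CMs within a library. One label field of the E16.5-4n library gives its age as embryonic day 16.6 in place of 16.5.

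Before birth the heart lives at low oxygen and draws much of its ATP from glucose and lactate. With the first breaths and the first milk, oxygen and fatty acids in the blood rise, and CMs turn to mitochondrial fatty acid oxidation. In the same days rodent CMs exchange fetal for adult forms of their contractile proteins and leave the cell cycle, and many end as binucleated or polyploid cells after a last round of DNA synthesis without cell division. The E16.5 to P1 interval spans the beginning of these transitions.

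The CMs of E16.5-4n held 13070343 UMIs in sum, with a median of 2185 UMIs and 1073.5 genes per CM, and those of P1-4n held 19665830, with a median of 3187 UMIs and 1203 genes. The share of UMIs from the mitochondrial genome was 8.16% at E16.5 and 16.8% at P1, and that of the nuclear RNA Malat1 was 1.95% and 0.713%. All 8 CM markers (the 4 of the filter with Myh6, Myh7, Ttn and Actn2) were seen in both libraries and summed to 31122 and 33881 CPM, UMIs of a gene per 1000000 UMIs. Markers of other cell types were also found in these CMs: 8 fibroblast markers summed to 796 and 947 CPM, 8 endothelial markers to 275 and 748 CPM, 8 mural markers to 76.1 and 111 CPM, 8 macrophage markers to 30.6 and 29.5 CPM, and 6 epicardial markers to 23.4 and 18.8 CPM. Every marker of these 5 types had UMIs in both libraries. Fabp4, which is also a gene of fatty acid use, made up most of the endothelial sum in both. The 8 erythroid markers summed to 10395 CPM at E16.5 and 2906 CPM at P1, with all of them seen in both. Of 6 markers of neural crest and glia, which summed to 5.43 and 8.59 CPM, 4 were at 0 in E16.5-4n, Sox10 and Th among them, and 2 in P1-4n, Th among them. The libraries shared 25 cell barcodes (0.501% of E16.5-4n and 0.523% of P1-4n), and no doublets were removed. Xist, the RNA of the inactive X chromosome, stood at 195 CPM at E16.5 and 96.9 at P1, and the Y-linked gene Ddx3y at 12.7 and 22.3. The part of depth, of other cells and of the sexes of the pooled pups in the values below was not tested.

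For each gene the UMIs of all CMs in a library were added up and scaled to CPM, and the 9958 genes with at least 100 UMIs in both libraries together were compared as the log2 ratio of P1-4n over E16.5-4n. Since each molecule is counted once at its 3′ end, levels were not divided by gene length. At least 2-fold higher in P1-4n were 287 genes (2.88% of those tested), and at least 2-fold lower were 1159 (11.6%). The median log2 ratio of all genes was -0.30, with the 10th and 90th percentiles at -1.09 and 0.42. Centred on that median, the same threshold gave 504 higher and 674 lower genes, so that the share of higher genes among those past the threshold went from 19.8% to 42.8%. A list of genes is therefore read beside -0.30, and a list whose median falls between -0.30 and 0 is below 0 on the CPM scale and above the typical gene. The counts of a list are read beside the 2.88% and 11.6% of all tested genes. The largest gains in CPM belonged to 7 mitochondrially encoded genes, the fatty acid binding protein Fabp3 and the sarcomere genes Tnni3 and Myl2. The largest losses were of Malat1, 3 adult-type globin genes, Myh7, Myl4, the tubulin Tubb5, the histone variant H2afz, Ppia and the lactate dehydrogenase Ldha.

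**Figure D1:**
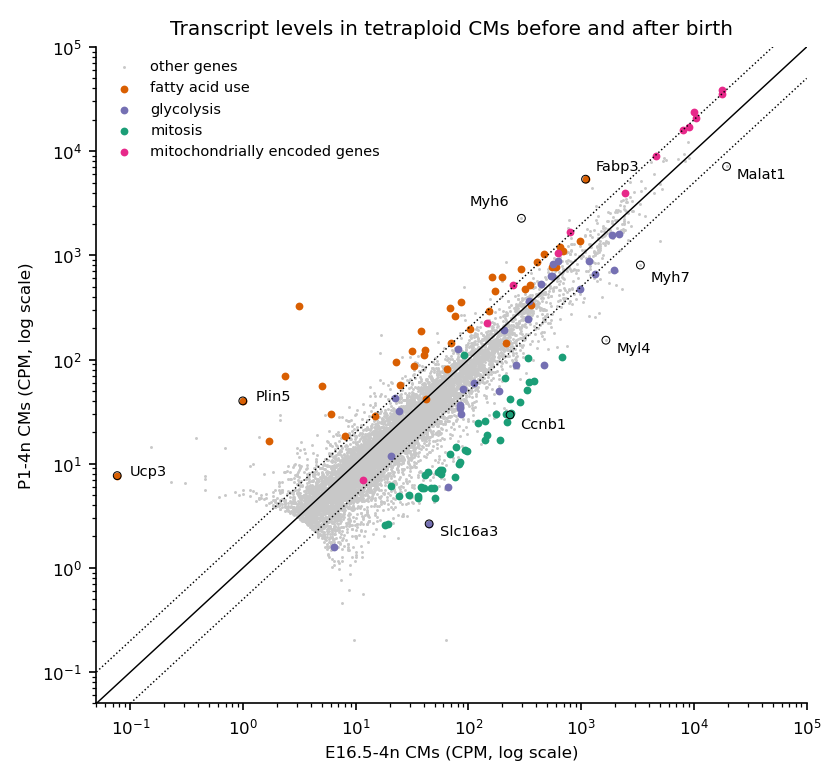
Level of each of the tested genes in E16.5-4n CMs (horizontal) and P1-4n CMs (vertical), in CPM on log axes, with the line of equal levels, dotted lines at 2-fold and 4 gene lists in colour. Genes of fatty acid use lie mostly above the line, with Ucp3 and Plin5 far from it, nearly all mitosis genes lie below the lower dotted line, and Car4, which had no UMI in E16.5-4n, cannot be shown on a log axis.

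Genes of fatty acid use were higher in P1-4n almost without exception. Of the 43 genes listed, 40 had enough UMIs, 26 of them were at least 2-fold higher and none was 2-fold lower, with a median log2 ratio of 1.35. The summed level of the list was 8453 CPM at E16.5 and 19441 at P1, and 19713 in P5-4n. Only 3 of the 40, Fabp5, Echs1 and Plin2, lay below 0, and of these Fabp5 alone was below the median of all genes.

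Genes that take up fatty acids and carry them through the cytosol had the largest gain in CPM among the roles. The 8 genes of this role summed to 2908 and 8939 CPM, and 6 were at least 2-fold higher. Fabp3, the heart's main cytosolic fatty acid binding protein, went from 1093 to 5384 CPM (log2 ratio 2.30, 2.27 to 2.33), though a processed copy of the gene can share its reads. Cd36, which carries fatty acids across the cell membrane, went from 86.1 to 358 CPM (log2 ratio 2.06, 1.97 to 2.15). Acsl1, which couples them to coenzyme A, stood at 68.6 CPM at E16.5 and 313 CPM at P1, a log2 ratio of 2.19 (2.09 to 2.30). The vessel-side lipase Lpl, which frees fatty acids from lipoproteins, went from 295 to 734 CPM (log2 ratio 1.32, 1.26 to 1.37). Fabp4 went from 163 to 615 CPM (log2 ratio 1.92, 1.85 to 1.99), but it is also 1 of the 8 endothelial markers and makes up most of their sum. Those 8 had a median log2 ratio of 0.40, and Fabp4 itself was the 1 that was at least 2-fold higher. In contrast, Fabp5, a binding protein of many growing tissues, went from 217 to 145 CPM (log2 ratio -0.59, -0.66 to -0.51).

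Entry into mitochondria runs over the carnitine shuttle, of which 4 of 6 genes could be compared and 3 were at least 2-fold higher. The carnitine-acylcarnitine carrier Slc25a20 went from 40.9 to 122 CPM (log2 ratio 1.58, 1.45 to 1.72) and Cpt2, on the inner membrane, from 40.2 to 109.7 CPM (log2 ratio 1.45, 1.31 to 1.59). Cpt1a, the fetal and liver form of the first enzyme, went from 14.7 to 28.4 CPM (log2 ratio 0.95, 0.71 to 1.20). Its muscle counterpart Cpt1b, the form known for the adult heart, had 0 UMIs at E16.5 and 2 at P1. At this count, Cpt1b could not be compared.

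Within the mitochondrion, 14 of 15 genes of beta-oxidation lay above 0, and 5 were at least 2-fold higher. Decr1, needed for unsaturated fatty acids, went from 75.5 to 262 CPM (log2 ratio 1.80, 1.70 to 1.90). Acadvl, which opens the oxidation of very long chains, went from 198 to 614 CPM (log2 ratio 1.63, 1.57 to 1.69), and the subunits of the trifunctional protein, Hadha and Hadhb, had log2 ratios of 1.41 (1.35 to 1.48) and 1.11 (1.07 to 1.16). Enzymes for shorter chains moved less: Acadm, for medium chains, had a log2 ratio of 0.48 (0.44 to 0.52), Acads, for short chains, 0.32 (0.20 to 0.45), and Echs1, the short-chain hydratase, -0.11 (-0.17 to -0.06). The ratios of the acyl-CoA dehydrogenases were thus ordered by chain length, 0.32 for Acads, 0.48 for Acadm, 0.66 for Acadl and 1.63 for Acadvl, where the intervals of Acads and Acadm touch and the others do not.

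The widest ratios were those of genes known as targets of PPAR, the nuclear receptors that sense fatty acids, and of lipid droplet genes. Of 13 compared, 12 were at least 2-fold higher, with a median log2 ratio of 2.30, although their sum was small (214 and 1119.8 CPM). Plin5, which holds lipid droplets to mitochondria, went from 0.995 to 40.1 CPM (log2 ratio 5.33, 4.55 to 6.25), and Plin4 from 1.68 to 16.4 CPM (log2 ratio 3.28, 2.66 to 3.98), while Plin2, which coats droplets in most cells, went from 42.2 to 41.7 CPM (log2 ratio -0.01, -0.17 to 0.14). Angptl4, a secreted inhibitor of Lpl, stood at 2.37 CPM at E16.5 and 69.8 CPM at P1, a log2 ratio of 4.88 (4.37 to 5.44). Pdk4, a kinase that holds back pyruvate oxidation, went from 22.6 to 94.4 CPM (log2 ratio 2.06, 1.89 to 2.25). The thioesterases Acot1 and Acot2 had log2 ratios of 2.30 (2.16 to 2.43) and 1.39 (1.24 to 1.55), and Mlycd, which removes the malonyl-CoA that blocks the shuttle, 1.93 (1.78 to 2.08).

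Of the uncoupling proteins, Ucp2 went from 4.97 to 56.1 CPM (log2 ratio 3.50, 3.14 to 3.88), and Ucp3 (chr7:100472990-100486432 of GRCm38) had 1 UMI in E16.5-4n against 151 in P1-4n, a ratio with a wide interval (6.65, 4.15 to 11.96). Gm10603, an antisense gene that overlaps Ucp3 and was counted on its own strand, went from 3 to 130 UMIs. The letters AGGTCA, on either strand the core of the sites bound by PPAR and many other nuclear receptors, were searched in the 250 bases before the start of each gene with a RefSeq promoter entry (GRCm38.p6). They were found for 8 of 34 genes of fatty acid use (23.5%), for 12.3% of all tested genes and for 15.8% of the 27025 genes with an entry. The share was 25.9% of 27 glycolysis genes and 33.3% of 15 CDK inhibitors and G1 genes, lists whose medians lay below 0. A gene counted as a match when any of its windows held the letters, with 32851 windows for the 27025 genes. The differences between these shares were not tested. The 150 bases before Ucp3, shown as an example from the list, hold them at 2 positions, in capitals (chr7:100472841-100472990, plus strand).
Ucp3: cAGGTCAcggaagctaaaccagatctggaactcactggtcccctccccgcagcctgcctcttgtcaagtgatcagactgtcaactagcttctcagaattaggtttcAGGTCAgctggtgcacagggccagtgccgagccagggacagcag
A match is a string of letters and not a measured binding site.

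Ketone bodies are a further fuel of the heart. Oxct1, the enzyme that activates them for use, went from 355 to 142 CPM (log2 ratio -1.32, -1.39 to -1.25), and stood at 305 CPM in P5-4n. Acat1, which splits acetoacetyl-CoA, had a log2 ratio of -0.09 (-0.14 to -0.05), and Bdh1 was below the count minimum with 44 and 17 UMIs. Of the 3 genes compared, 1 was 2-fold lower and none 2-fold higher, with a median of -0.09, which was -0.71 with a minimum of 20 UMIs.

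Transcripts of the mitochondrial genome rose from 81643 to 168028 CPM in sum. Of its 13 protein genes, 6 were at least 2-fold higher and the median log2 ratio was 0.99. The complex IV subunit mt-Co3 went from 17775 to 38556 CPM (log2 ratio 1.12, 1.11 to 1.12) and mt-Co1 from 10097 to 23996 CPM (log2 ratio 1.25, 1.24 to 1.26), and the ATP synthase subunit mt-Atp6 from 17609.6 to 35037 CPM (log2 ratio 0.99, 0.99 to 1.00). The exception was mt-Nd6, the protein gene encoded on the other strand, from 11.6 to 6.97 CPM (log2 ratio -0.73, -1.07 to -0.39). These genes took part of the CPM scale: with them and Malat1 left out of the totals, an alternative chosen after the data were seen, the median of all genes was -0.18, with 356 genes at least 2-fold higher and 927 lower.

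Nuclear genes of the tricarboxylic acid cycle shifted little, with none of 17 past 2-fold and a median of 0.13. Their sums were 10295 and 10229 CPM. Ogdh (0.79, 0.70 to 0.87) and Idh3b (0.75, 0.68 to 0.82), subunits of 2 of the rate-setting dehydrogenases, had the highest ratios, and Idh2 (-0.38, -0.40 to -0.36) the lowest. In complex IV the muscle forms of 2 subunits were at least 2-fold higher and no form of other tissues was, with a median of 0.43 over the 6 forms. Cox8b went from 758 to 1821 CPM (log2 ratio 1.26, 1.23 to 1.30), while Cox8a went from 2576 to 2086 CPM (log2 ratio -0.30, -0.32 to -0.28). Cox6a2 went from 1352 to 2989.6 CPM (log2 ratio 1.14, 1.12 to 1.17), while Cox6a1 went from 1579.8 to 1538 CPM (log2 ratio -0.04, -0.06 to -0.01). The third muscle form, Cox7a1, had a log2 ratio of 0.59 (0.55 to 0.63), against 0.27 (0.25 to 0.29) for Cox7a2. Among 10 genes that hand on high-energy phosphate, with a median of -0.03, the mitochondrial creatine kinase Ckmt2 was the one more than 2-fold higher, from 115 to 277 CPM (log2 ratio 1.27, 1.19 to 1.36), and the brain-type kinase Ckb (-1.16, -1.23 to -1.09) and Ak4 (-1.42, -1.76 to -1.08) were the ones more than 2-fold lower.

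Glycolysis was lower in P1-4n, unevenly across its steps. Of 29 genes, 11 were at least 2-fold lower and none was 2-fold higher, with a median log2 ratio of -0.78 and sums of 14676 and 10911 CPM. The ends of the pathway moved most: Slc16a3 (chr11:120948480-120960868), which exports lactate, went from 44.8 to 2.64 CPM (log2 ratio -4.08, -4.52 to -3.67), and Slc2a1, the widespread glucose transporter, went from 65.2 to 6.00 CPM (log2 ratio -3.44, -3.73 to -3.16). In contrast, the insulin-regulated transporter Slc2a4 went from 24.3 to 32.2 CPM (log2 ratio 0.41, 0.21 to 0.61). Hexokinase Hk2 had a log2 ratio of -1.33 (-1.47 to -1.19) and Hk1 of -0.78 (-0.91 to -0.66).

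Within the enzymes, the form found in most tissues and the muscle form of the same step parted. Pgam1 went from 471 to 87.7 CPM (log2 ratio -2.43, -2.50 to -2.35), but the muscle form Pgam2 went from 544 to 636 CPM (log2 ratio 0.23, 0.18 to 0.27). Eno1 stood at 266 CPM at E16.5 and 89.2 CPM at P1, a log2 ratio of -1.57 (-1.66 to -1.49), and the muscle form Eno3 at 621 CPM at E16.5 and 881 CPM at P1, a log2 ratio of 0.51 (0.47 to 0.54). Among the phosphofructokinases, Pfkp and Pfkl had log2 ratios of -1.89 (-2.0 to -1.78) and -1.53 (-1.67 to -1.38), against 0.66 (0.55 to 0.76) for the muscle form Pfkm. Ldha, which favours lactate, went from 1952 to 719 CPM (log2 ratio -1.44, -1.47 to -1.41), and Ldhb, which favours pyruvate, from 1858 to 1584 CPM (log2 ratio -0.23, -0.25 to -0.21). The pyruvate carriers Mpc1 (0.28, 0.24 to 0.33) and Mpc2 (0.56, 0.52 to 0.60) lay above 0. Pdk2, which holds back pyruvate oxidation, was the highest of the list (0.96, 0.76 to 1.15). Outside the list, Fbp2, the muscle fructose bisphosphatase, which runs the phosphofructokinase step backwards, had 2 UMIs at E16.5 and 282 at P1 (6.55, 4.68 to 9.60), and was thus among the genes of highest ratio.

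Genes known to be raised by low oxygen were mostly lower. Of 15 compared, 9 were at least 2-fold lower, none was above 0, 4 were above the median of all genes, and the median log2 ratio was -1.12. In order of ratio, the 4 lowest were Slc2a1, shared with glycolysis, Ndrg1 (-2.11, -2.38 to -1.86), Hif3a (-1.84, -2.30 to -1.41) and Ankrd37 (-1.71, -2.03 to -1.39). Egln3, an oxygen-sensing hydroxylase, went from 29.0 to 10.5 CPM (log2 ratio -1.47, -1.72 to -1.22), and the collagen hydroxylases P4ha1 and P4ha2 had log2 ratios of -1.40 (-1.65 to -1.16) and -1.37 (-1.66 to -1.09). Vegfa, the growth factor of vessels, stood at 59.6 CPM at E16.5 and 56.1 at P1 (-0.09, -0.22 to 0.05), and Hif1a itself at 112 and 106 (-0.09, -0.19 to 0.01). The list's median depended on which CMs and genes were taken. It was -0.15 over genes with at least 1000 UMIs. It was -0.25 in CMs without a mitosis UMI after thinning to 1000 UMIs each, where low genes no longer reached the count minimum. These were 1091 of 4857 CMs in E16.5-4n and 3088 of 4747 in P1-4n.

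The letters ACGTG, the core bound by hypoxia-inducible factors and by other E-box proteins, stood in the 250 bases before the start of 12 of 17 genes of the hypoxia list (70.6%) and of 11 of 27 glycolysis genes (40.7%). The share was 26.5% of tested genes and 18.5% of all genes with a promoter entry. It was about as high in some other lists, at 70% of 10 glucocorticoid-responsive genes and 66.7% of 12 clock genes. Autophagy and lysosome genes (46.7% of 15) and calcium cycling genes (41.7% of 12) were near or above glycolysis. The 150 bases before Slc16a3, Slc2a1 and Ldha are shown, since these 3 bring in glucose, make lactate and export it and each was more than 2-fold lower, with ACGTG or its reverse CACGT in capitals. In Ldha both readings overlap at CACGTG. The windows are chr11:120948917-120949066, chr4:119108595-119108744 and chr7:46845654-46845803, all on the plus strand. RefSeq's start sites were used, which for Slc16a3 and Ldha lie within the GENCODE gene and for Slc2a1 after its first base.
Slc16a3: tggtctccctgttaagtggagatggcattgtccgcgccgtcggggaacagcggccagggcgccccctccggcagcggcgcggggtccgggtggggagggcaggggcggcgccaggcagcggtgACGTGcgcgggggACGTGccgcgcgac
Slc2a1: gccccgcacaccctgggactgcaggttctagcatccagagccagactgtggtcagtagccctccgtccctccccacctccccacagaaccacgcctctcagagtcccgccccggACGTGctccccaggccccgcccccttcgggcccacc
Ldha: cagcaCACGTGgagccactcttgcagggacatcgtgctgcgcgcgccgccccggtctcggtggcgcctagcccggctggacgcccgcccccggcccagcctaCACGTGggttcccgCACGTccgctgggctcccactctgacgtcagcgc

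Contractile genes exchanged forms while their sum held. The 39 sarcomere genes compared summed to 75901 CPM at E16.5 and 79144 at P1, with 3 at least 2-fold higher, 6 at least 2-fold lower and a median of -0.08. Of all tested genes, 2.88% were at least 2-fold higher and 11.6% lower. Myh7, the slow fetal myosin heavy chain of the rodent ventricle, stood at 3351 CPM at E16.5 and 806 CPM at P1, a log2 ratio of -2.06 (-2.08 to -2.03). Myh6, the fast adult heavy chain, stood at 295 CPM at E16.5 and 2267 CPM at P1, a log2 ratio of 2.94 (2.90 to 2.99). In UMIs of both, Myh6 made up 8.09% (7.84 to 8.34) at E16.5 and 73.8% (73.4 to 74.1) at P1, and 94.6% in P5-4n, so that most of the exchange to the P5 value lay between these ages.

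The light chains Myl4 and Myl7, which in the adult belong to the atrium, went from 1656 to 153 CPM (log2 ratio -3.43, -3.49 to -3.38) and from 616 to 132 CPM (log2 ratio -2.22, -2.28 to -2.15). Their ventricular counterparts went from 8142 to 9468 CPM (log2 ratio 0.22, 0.21 to 0.23) for Myl3 and from 8795 to 12298 CPM (log2 ratio 0.48, 0.47 to 0.49) for Myl2. Myom2, a protein of the M-band, had 221 UMIs at E16.5 and 3385 at P1, from 16.9 to 172 CPM (log2 ratio 3.35, 3.15 to 3.55), and Xirp2 went from 3.44 to 8.24 CPM (log2 ratio 1.26, 0.77 to 1.77). The smooth muscle actin Acta2 (-1.28, -1.32 to -1.25), the slow skeletal troponin Tnnt1 (-1.59, -1.70 to -1.47) and the stretch-responsive Ankrd1 (-1.34, -1.37 to -1.31) were lower. Of the 4 genes that defined the CMs, Tnni3 had a log2 ratio of 0.92 (0.90 to 0.93) and the others lay between -0.08 and 0.27.

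Over 17 pairs of an early and a later form of the same protein, the later form's share was higher in P1-4n for 16 and rose by more than 5 points for 13. The 16 include Cpt1b, whose 0 of 192 and 2 of 561 UMIs do not set the libraries apart. For the glucose transporters, the share of Slc2a4 was 27.1% (24.6 to 29.8) and 84.3% (81.5 to 86.8), the widest shift after that of the myosins. Pgam2 went from 53.6% to 87.9% and Eno3 from 70.0% to 90.8%. In the thin filament, Tnni3, the adult inhibitory troponin, went from 44.3% to 64.4% over Tnni1, and was at 76.9% in P5-4n. Ldhb went from 48.8% to 68.8%, above its 61.1% in P5-4n. The one pair that shifted by more than 5 points the other way was that of the hexokinases, with Hk2 at 48.8% (46.7 to 50.8) and 39.5% (37.2 to 41.9).

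**Figure D2:**
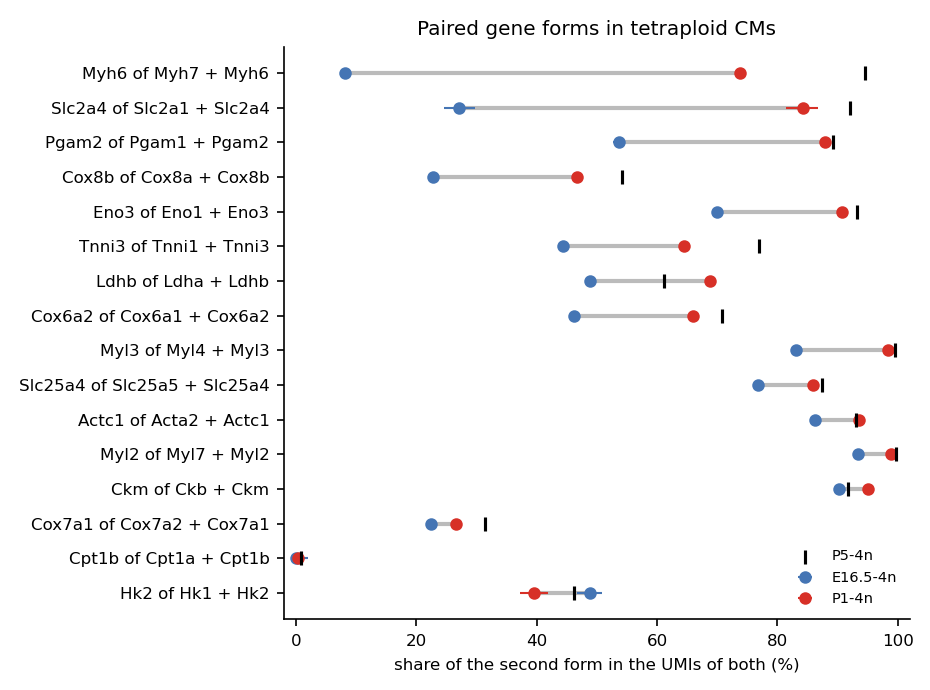
Share of the later form in the UMIs of both forms (%), for 16 of the 17 pairs in E16.5-4n (blue), P1-4n (red) and P5-4n (black tick), with bars for the exact binomial interval, most of them narrower than the points. Myh6, Slc2a4 and Pgam2 show the widest shifts, and Hk2 lies to the left of its E16.5-4n value.

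Calcium handling and excitation genes divided in a like manner. Atp2a2, the pump that refills the sarcoplasmic reticulum, went from 774 to 2173 CPM (log2 ratio 1.49, 1.46 to 1.52), and Ryr2, its release channel, from 156 to 383 CPM (log2 ratio 1.30, 1.23 to 1.37). Pln, the inhibitor of the pump, went from 2689.7 to 5032 CPM (log2 ratio 0.90, 0.89 to 0.92). Sln, an inhibitor of the pump found in the atrium, went from 17.8 to 4.27 CPM (log2 ratio -2.06, -2.43 to -1.69), and Slc8a1, the sodium-calcium exchanger of the cell membrane, from 12.8 to 4.73 CPM (log2 ratio -1.43, -1.82 to -1.06). Of 19 calcium genes (median -0.08), 3 were at least 2-fold higher, the calcium channel Cacna1g (1.03, 0.60 to 1.47) among them, and 4 at least 2-fold lower, with the calcium stores Calr (-1.32, -1.40 to -1.25) and Casq1 (-1.30, -1.55 to -1.05) the other two. Of 13 channel and pump genes (median 0.45), 4 were at least 2-fold higher and none lower. Among the 4 were Abcc9 (1.41, 1.27 to 1.57), the regulatory subunit of the ATP-sensitive potassium channel, and the potassium channel subunit Kcne1 (1.01, 0.95 to 1.08). These counts stand beside 2.88% higher and 11.6% lower over all tested genes. None of 12 genes of the intercalated disc (median 0.08) passed 2-fold, with Dsg2 (0.91, 0.62 to 1.22) and Dsp (0.81, 0.74 to 0.89), both of desmosomes, the highest. The natriuretic peptides Nppa and Nppb had log2 ratios of -0.38 (-0.40 to -0.35) and -0.46 (-0.52 to -0.40).

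**Figure D3:**
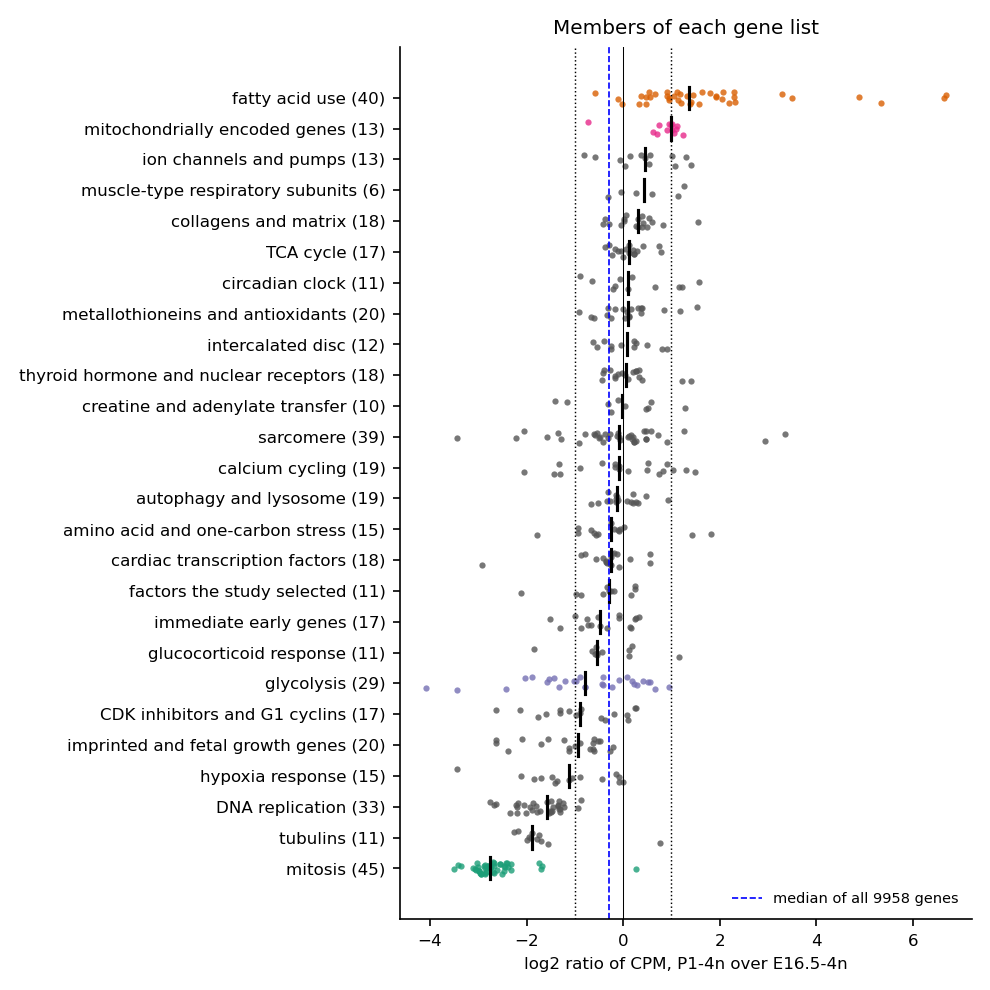
The log2 ratio of CPM of P1-4n over E16.5-4n for each compared member of the lists with 6 or more of them (number in brackets), with the median of each list as a black bar, the median of all genes (-0.30) as a dashed line and 2-fold as dotted lines. Fatty acid use and the mitochondrially encoded genes stand at the top and mitosis, tubulins and DNA replication at the bottom.

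Mitosis genes were the most lowered group. All 45 had enough UMIs, 44 were at least 2-fold lower, and the median log2 ratio was -2.76. Their sum was 6045 CPM at E16.5, 1085 at P1 and 3294 at P5, so that P1-4n was the lowest of the 3 libraries. The 11 cyclins and mitotic kinases lay in a narrow band between -3.0 and -2.46. Ccnb1, the cyclin that starts mitosis, went from 234 to 29.4 CPM (log2 ratio -2.99, -3.12 to -2.86), and its kinase Cdk1 from 344 to 60.2 CPM (log2 ratio -2.52, -2.61 to -2.42). Plk1 stood at 84.1 CPM at E16.5 and 10.5 CPM at P1, a log2 ratio of -3.0 (-3.23 to -2.79), and Aurkb at 57.5 CPM at E16.5 and 7.93 CPM at P1, a log2 ratio of -2.86 (-3.11 to -2.61).

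The lowest single ratios were of genes of the kinetochore and the spindle, though as a role these were not the most lowered. The median was -2.69 for anaphase, kinetochore and spindle, -2.86 for cyclins and mitotic kinases and -2.70 for chromosomes and cytokinesis. Cenpf, of the outer kinetochore, went from 191 to 16.9 CPM (log2 ratio -3.50, -3.67 to -3.34), the motor Kif20b from 50.6 to 4.73 CPM (log2 ratio -3.42, -3.75 to -3.11), and the motor Cenpe from 75.5 to 7.37 CPM (log2 ratio -3.36, -3.62 to -3.10). Cdc20, which turns on the anaphase-promoting complex, went from 237 to 30.5 CPM (log2 ratio -2.96, -3.09 to -2.84). Of the cytokinesis genes, Ect2, which starts the contractile ring, went from 49.1 to 5.85 CPM (log2 ratio -3.07, -3.37 to -2.78), Prc1, which bundles the midzone, from 139 to 17.0 CPM (log2 ratio -3.03, -3.20 to -2.86), and Anln from 77.4 to 14.5 CPM (log2 ratio -2.41, -2.61 to -2.22). Pttg1 (securin), the guard of chromatid cohesion, was the one member that was not lower, from 91.9 to 110.2 CPM (log2 ratio 0.26, 0.16 to 0.36). The centromere histone Cenpa (-1.71, -1.79 to -1.63) and Ccdc34 (-1.69, -1.78 to -1.59) were lowered less than the rest.

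The letters CCAAT and TTTGAA, known from promoters of genes of the G2 and M phases as the site of NF-Y and as the cell cycle homology region that the DREAM complex binds, were searched. CCAAT was found before 29 of 39 mitosis genes (74.4%), 40.8% of tested genes and 37.5% of all genes with an entry, and TTTGAA before 13 of 39 (33.3%), 12.4% and 18.3%. CCAAT was as frequent in some other lists, at 80% of 10 glucocorticoid-responsive genes and 75% of 12 clock genes and of 16 genes of amino acid and one-carbon stress. TTTGAA was as frequent among collagen and matrix genes, at 33.3% of 12. Cenpf, Ccnb1 and Cdk1 are shown as the gene of lowest ratio in the list and the pair of subunits that start mitosis, with matches on either strand in capitals (ATTGG is CCAAT on the other strand). Their windows lie on the minus strand, at chr1:189688087-189688236, chr13:100786487-100786636 and chr10:69352913-69353062, with those of Ccnb1 and Cdk1 reaching into the GENCODE gene.
Cenpf: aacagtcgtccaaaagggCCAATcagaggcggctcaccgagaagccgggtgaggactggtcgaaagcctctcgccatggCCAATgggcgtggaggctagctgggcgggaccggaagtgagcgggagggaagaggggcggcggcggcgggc
Ccnb1: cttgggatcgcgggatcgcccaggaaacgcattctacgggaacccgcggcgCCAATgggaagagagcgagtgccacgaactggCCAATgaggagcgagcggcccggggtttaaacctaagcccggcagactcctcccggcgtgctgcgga
Cdk1: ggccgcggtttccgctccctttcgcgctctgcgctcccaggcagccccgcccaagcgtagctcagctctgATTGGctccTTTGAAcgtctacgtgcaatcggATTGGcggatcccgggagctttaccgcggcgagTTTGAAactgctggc
In Cdk1 both sets of letters occur, and in the other windows only CCAAT does.

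DNA replication genes were lower as a body but less so than mitosis genes. Of 33, 31 were at least 2-fold lower, with a median of -1.57 and sums of 1894 and 559 CPM. Rrm2, the S-phase subunit of ribonucleotide reductase, went from 363 to 58.9 CPM (log2 ratio -2.62, -2.72 to -2.53). The helicase subunits Mcm2 to Mcm7 had log2 ratios from -1.87 (Mcm3) to -0.94 (Mcm4), and Pcna one of -1.30 (-1.46 to -1.15). Mcm4 and E2f1 (-0.87, -1.22 to -0.52) were the members within 2-fold.

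Most cell cycle inhibitors were also lower in P1-4n. Of 17 inhibitors and G1 genes compared, 7 were at least 2-fold lower and none was 2-fold higher, with a median of -0.90. Cdkn1c (p57) went from 175 to 28.3 CPM (log2 ratio -2.63, -2.76 to -2.49), Cdkn2d (p19) from 287 to 65.2 CPM (log2 ratio -2.14, -2.23 to -2.05), Cdkn2c (p18) from 77.9 to 25.6 CPM (log2 ratio -1.61, -1.76 to -1.45), and Cdkn1b (p27) from 44.6 to 18.1 CPM (log2 ratio -1.30, -1.50 to -1.11). Cdkn1a (p21) had a log2 ratio of -0.97 (-1.13 to -0.82). Of 8 inhibitors compared, 5 were 2-fold lower and 2 lay above 0, Gadd45a (0.25, 0.00 to 0.50) and Ccng1 (0.09, -0.00 to 0.18). Among cyclins of G1, Ccnd1 had a log2 ratio of 0.27 (0.08 to 0.47), Ccnd2 of -0.38 (-0.46 to -0.30) and Ccnd3 of -0.87 (-0.96 to -0.78), and the kinase Cdk4 of -1.12 (-1.23 to -1.02).

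Of 11 tubulin and stathmin genes, 10 were at least 2-fold lower, with a median of -1.89 and sums of 6491 and 1595 CPM. Tubb5 went from 2285 to 475 CPM (log2 ratio -2.27, -2.30 to -2.23), Tuba1b from 1542 to 398 CPM (log2 ratio -1.96, -1.99 to -1.92) and Stmn1, which takes up free tubulin, from 1180.4 to 261 CPM (log2 ratio -2.18, -2.22 to -2.13). The exception, Tuba4a, went from 36 to 61.1 CPM (log2 ratio 0.76, 0.61 to 0.92). Tuba8, below the count minimum, had 1 UMI at E16.5 and 57 at P1. Reads of near-identical tubulin genes may be divided between them.

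Distributions over single CMs were compared for the same groups of genes. CMs were thinned to 2000 UMIs each to remove the difference in depth, which kept 2738 CMs of E16.5-4n and 3749 of P1-4n and left out 2142 and 998 that were shallower. The median CM held 17 UMIs of fatty acid genes at E16.5 and 38 at P1, and the 5th percentile in P1-4n (22) lay above the 75th in E16.5-4n (20). Glycolysis stood at medians of 29 and 21 UMIs with overlapping ranges, since the 25th percentile at E16.5 (24) was below the 75th at P1 (25). More fatty acid than glycolysis UMIs were found in 4.42% (3.68 to 5.26) of E16.5-4n CMs and 94.6% (93.8 to 95.3) of P1-4n CMs, or 5.72% and 96.2% without thinning. Intervals of such shares count the CMs of 1 library, which are not replicates of an age. More Myh6 than Myh7 UMIs were found in 1.39% (0.984 to 1.90) and 79.4% (78.1 to 80.7), or 1.05% and 82.9% without thinning, and in P1-4n a remaining 12.2% (11.2 to 13.3) had more Myh7. Since almost every barcode of these libraries was a CM, no cell type without these genes was there to show how many UMIs came from free RNA.

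Mitosis UMIs were spread over the CMs of E16.5-4n and held by few in P1-4n. At least 10 of 2000 UMIs came from mitosis genes in 46.8% (44.9 to 48.7) of E16.5-4n CMs and 6.64% (5.87 to 7.49) of P1-4n CMs, against 46.3% and 9.14% without thinning. The medians were 7 and 1 UMIs, and the 99th percentiles 42.6 and 28. The 10% of CMs with the most held 29.6% of all mitosis UMIs at E16.5 and 70.3% at P1. A bound of 10 UMIs is a range and not a cell type, and 223 CMs of E16.5-4n and 81 of P1-4n lay within 2 UMIs of it.

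**Figure D4:**
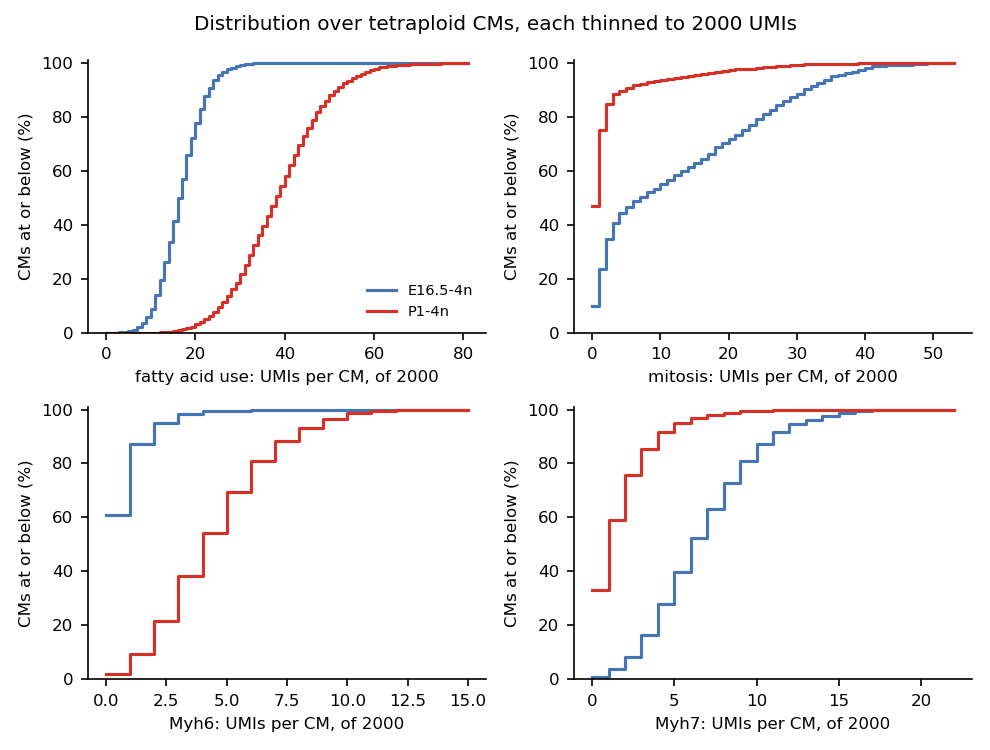
Cumulative share of CMs (%) by their UMIs of fatty acid genes, mitosis genes, Myh6 and Myh7, each CM thinned to 2000 UMIs, for 2738 CMs of E16.5-4n (blue) and 3749 of P1-4n (red). The fatty acid curves lie apart along their length, with medians of 17 and 38, and the mitosis curve of P1-4n is near its ceiling at few UMIs.

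The ratios of metabolic genes had the same sign in both mitosis ranges. In CMs with at least 10 mitosis UMIs (1281 at E16.5 and 249 at P1) the summed fatty acid genes had a log2 ratio of 1.07, glycolysis -0.52, and the mitochondrially encoded genes 0.91, and Myh6 made up 7.17% and 76.9% of the myosin UMIs. In CMs under 10 (1457 and 3500) the values were 1.14, -0.47 and 1.05, with Myh6 at 8.94% and 72.5%. Replication genes stood at 2743 and 2133 CPM in the upper range (-0.36) and at 1250 and 464 CPM in the lower (-1.43). Mitosis genes themselves, which set the ranges, stood at 11908 and 9930 CPM in the upper range (-0.26) and at 1203 and 467 CPM in the lower (-1.37).

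Growth genes of the fetus were lower. Of 20 imprinted or fetal genes compared, 9 were at least 2-fold lower and none lay above 0, with a median of -0.94. The imprinted RNA H19 went from 1046 to 354 CPM (log2 ratio -1.56, -1.61 to -1.52) and Mest from 576 to 178 CPM (log2 ratio -1.69, -1.75 to -1.64), while Igf2, the growth factor beside H19, had a log2 ratio of -0.61 (-0.66 to -0.55) and the growth inhibitor Grb10 of -0.63 (-0.69 to -0.57). Gpc3, a cell surface proteoglycan of growing tissue, went from 168 to 27.3 CPM (log2 ratio -2.62, -2.76 to -2.49), and the chromatin protein Hmgb2 from 1327 to 254 CPM (log2 ratio -2.38, -2.43 to -2.34). Levels in P5-4n were lower again for H19 (49.8 CPM), Gpc3 (4.78 CPM) and Cdkn1c (5.71 CPM), but not for Hmgb2 (482 CPM). Of the insulin-like growth factor 2 mRNA binding proteins, Igf2bp1 had a log2 ratio of -2.10 (-2.52 to -1.70) and Igf2bp3 of -1.12 (-1.33 to -0.90).

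Of 18 nuclear receptors and cofactors compared (median 0.07), 2 were at least 2-fold higher, Perm1, a muscle regulator of mitochondrial genes, from 11.9 to 31.6 CPM (log2 ratio 1.42, 1.16 to 1.68), and Nr1d2, a repressor of the clock, from 13.8 to 31.9 CPM (log2 ratio 1.21, 0.97 to 1.46). Ppargc1a, the coactivator of mitochondrial growth, went from 96.7 to 86.3 CPM (log2 ratio -0.16, -0.27 to -0.06), and Esrra, one of its partners, from 86.1 to 108 CPM (log2 ratio 0.33, 0.22 to 0.43). Ppara had 47 and 50 UMIs, too few to compare, and Rxrg 1 and 41. Of 11 clock genes (median 0.10), 3 were at least 2-fold higher, Dbp (1.57, 1.29 to 1.86), Nr1d2 and Per3 (1.16, 0.81 to 1.52), while Arntl had a log2 ratio of -0.89 (-1.45 to -0.34). The share of all tested genes that were 2-fold higher was 2.88%. The clock median was 0.54 with CMs thinned to 1000 UMIs and 1.29 in those of them without a mitosis UMI. Fewer genes of any kind reached the count minimum there, 6798 and 3928 against 9958, so that these medians may rest on fewer clock genes.

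Among 18 cardiac transcription factors, with a median of -0.26, Hand1 alone passed 2-fold, from 10.0 to 1.32 CPM (log2 ratio -2.92, -3.59 to -2.31). Nkx2-5 (-0.35), Gata4 (-0.33), Tbx20 (-0.25) and Mef2a (-0.09) were within 0.3 of the median of all genes. Of the 11 factors that the study chose from these libraries, which makes the list no independent set, 1 passed 2-fold, Mycn, from 29.6 to 6.81 CPM (log2 ratio -2.12, -2.41 to -1.83), and the median was -0.30. Its relative Myc had 60 and 107 UMIs (0.25, -0.22 to 0.73), and Zeb1 stood at 29.1 CPM at E16.5 and 22.9 CPM at P1, a log2 ratio of -0.34 (-0.54 to -0.14).

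Stress and hormone responses were mixed. Their counts are read beside the 2.88% of all tested genes that were at least 2-fold higher and the 11.6% that were lower. Of 15 genes of amino acid and one-carbon stress (median -0.24), Asns (1.83, 1.47 to 2.20) and Trib3 (1.43, 0.92 to 1.97) were at least 2-fold higher and Psat1 (-1.79, -2.01 to -1.57) lower, and the hormone Fgf21 had 0 UMIs at E16.5 and 57 at P1, under the minimum. Of 11 glucocorticoid-responsive genes (median -0.54), Klf9 (1.15, 0.85 to 1.46) was 2-fold higher and Hif3a 2-fold lower, and Fkbp5 went from 9.10 to 6.05 CPM (log2 ratio -0.59, -0.97 to -0.21). Of 20 antioxidant genes (median 0.10), Txnip (1.53, 1.47 to 1.60), which binds thioredoxin, and catalase, Cat (1.17, 1.00 to 1.35), were 2-fold higher. None of 19 autophagy and lysosome genes passed 2-fold (median -0.12). Of 83 ribosomal protein genes (median -0.23) 1 did, Rpl3l, the ribosomal protein known from striated muscle, with 27 UMIs at E16.5 and 132 at P1. Of 17 immediate early genes (median -0.48), Atf3 (-1.52, -1.62 to -1.42) and Btg2 (-1.31, -1.41 to -1.21) were 2-fold lower, a share near that of all tested genes. Fos went from 215 to 268 CPM (log2 ratio 0.32, 0.25 to 0.39).

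Globins of the embryo had the lowest ratio of all tested genes. Hbb-y stood at 62.7 CPM in E16.5-4n (820 UMIs) and 0.203 CPM in P1-4n (4 UMIs), -8.27 (-10.15 to -6.91), and Hba-x went from 126 to 4 UMIs. The adult-type globin Hbb-bs went from 5027 to 1372 CPM (log2 ratio -1.87, -1.89 to -1.85) and Hba-a1 from 2078 to 706 CPM (log2 ratio -1.56, -1.59 to -1.53), with reads that near-identical copies can share. Globin is the product of red blood cells, and all 6 erythroid markers compared were at least 2-fold lower. After the globins, Mgarp, a mitochondrial protein known from hypoxia, was lowest, with 151 and 11 UMIs (-4.37, -5.40 to -3.49), and then Slc16a3, Stmn4 and Ankle1. Gipr, the receptor of the gut hormone GIP, went from 23.6 to 1.93 CPM (log2 ratio -3.61, -4.14 to -3.12).

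At the other end, Car4, a carbonic anhydrase on the cell surface, had no UMI at E16.5 and 105 at P1. Its log2 ratio was 4.54 when 3 UMIs stand in for 0, and the lower end of its counting interval was 4.22. Slc25a34, a mitochondrial carrier, went from 0.383 to 17.5 CPM (log2 ratio 5.51, 4.28 to 7.15), and the membrane receptor Paqr9 from 2.14 to 29.4 CPM (log2 ratio 3.78, 3.23 to 4.38). Genes known from other cells were also among the 15 of highest ratio. The neutrophil genes S100a9 and S100a8 went from 4 to 128 and from 6 to 139 UMIs, the interferon-induced Ifi27l2a from 18 to 358 and the endothelial and stem cell antigen Ly6a from 6 to 111. Spp1, a gene of macrophages and other cells, was among the 15 lowest, with 115 and 17 UMIs.

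Matrix genes, which fibroblasts mainly make, had a median of 0.31 over 18 genes in these CMs, with 1 at least 2-fold higher, the basement membrane collagen Col15a1 (1.54, 1.19 to 1.91). In CMs without a mitosis UMI after thinning to 1000 UMIs the median was -0.14. In CMs that held no UMI of any fibroblast, endothelial, macrophage, mural or epicardial marker, it was -0.17. These were 3086 of 4857 CMs in E16.5-4n and 2168 of 4747 in P1-4n, each thinned to 1000 UMIs. Erythroid and glial markers were not used to leave out CMs. In the CMs chosen by these markers, the medians of fatty acid use and glycolysis were 1.14 and -0.47. All genes past the count minimum gave 112 higher and 796 lower of 4822. The markers used for the choice, Fabp4 and Col1a1 among them, are at 0 there by construction.

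Diploid CMs over the same interval gave a near-parallel picture. Over 9317 genes with at least 100 UMIs in both comparisons, the ratios in 4n and 2n CMs correlated with r = 0.891 and rho = 0.852, a description across genes of libraries from the same litters. Of the 287 genes higher in P1-4n, 163 were also 2-fold higher in P1-2n, and of the 1159 lower, 728 were 2-fold lower. Genes with under 100 UMIs in the 2n libraries together were counted as not shared, whatever their 2n ratio. Of all 9391 genes compared in 2n, 186 were 2-fold higher and 1136 lower. No gene compared in both was 2-fold in opposite directions. The median of the difference (4n minus 2n) was 0.03. It was at least 1 for 77 genes (0.826%) and at most -1 for 39 (0.419%).

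List medians in 2n CMs were close for fatty acid use (1.29) and glycolysis (-0.73), and -2.50 for mitosis. Mitosis genes started from 1581 CPM in E16.5-2n, against 6045 in E16.5-4n, and ended at 419.6 in P1-2n, against 1085 in P1-4n, and 30 of 43 members had a lower ratio in 4n. At least 10 of 2000 UMIs came from mitosis genes in 10.2% of E16.5-2n CMs and 1.31% of P1-2n CMs (13.0% and 1.51% without thinning), in libraries that the sort had set apart by DNA content. Among mitosis genes the condensin subunit Smc4 differed most, with log2 ratios of -2.70 in 4n and -1.54 in 2n, a difference of -1.16 (-1.33 to -0.98). Malat1 also went lower in 4n (-1.45) than in 2n (-0.78). Neat1, another nuclear RNA, went from 5.51 to 16.4 CPM (log2 ratio 1.58, 1.20 to 1.97) in 4n.

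Several of the largest differences were in genes with low counts, Praf2 (100 and 58 UMIs in 4n) among them. Rpgrip1, with the largest difference below 0 among genes compared in both, had 749 and 142 UMIs in 4n. Rpgrip1 stood at 57.3 and 7.22 CPM in E16.5-4n and P1-4n and at 11.1 and 6.75 CPM in 2n, a difference of -2.26 (-2.70 to -1.83). Slc24a5 behaved alike, at 49.4 and 4.27 CPM in 4n and 9.03 and 2.92 CPM in 2n (-1.90, -2.48 to -1.33). In both genes the E16.5-4n library stood apart, and the other 3 held the lower levels. The nuclear import factor Kpna2 went the same way, 90.1 and 21.2 CPM against 17.6 and 10.9 (-1.40, -1.72 to -1.08).

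In the other direction most of the leading genes were lower in both P1 libraries, with a smaller fall in 4n. Praf2 stood at 7.65 and 2.95 CPM in 4n and 7.66 and 0.669 in 2n (2.14, 1.13 to 3.15). Tagln, an actin-binding protein and a mural marker, stood at 21.8 and 14.1 CPM in 4n and 28.8 and 5.47 in 2n (1.77, 1.36 to 2.18), and Rcn3 at 33.5 and 15.8 against 15.1 and 2.07 (1.78, 1.22 to 2.34). The summed mural markers, Tagln among them, were 76.1 and 111 CPM in 4n and 54.9 and 27.7 in 2n. Most of the fall of that sum in 2n was the fall of Tagln itself. The summed fibroblast markers were 796 and 947 in 4n and 133 and 142 in 2n. The part of mural and fibroblast RNA in these differences was not tested. Gja5, a connexin of the atrium, the trabeculae and arteries, went from 14.4 to 9.92 CPM in 4n and from 20.7 to 4.93 in 2n (1.54, 1.08 to 1.99). All 16 immediate early genes compared in both had a higher ratio in 4n, with a median difference of 0.50. The cell cycle inhibitor Cdkn1b was opposite, with ratios of -1.30 in 4n and -0.21 in 2n (-1.09, -1.42 to -0.77).

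**Figure D5:**
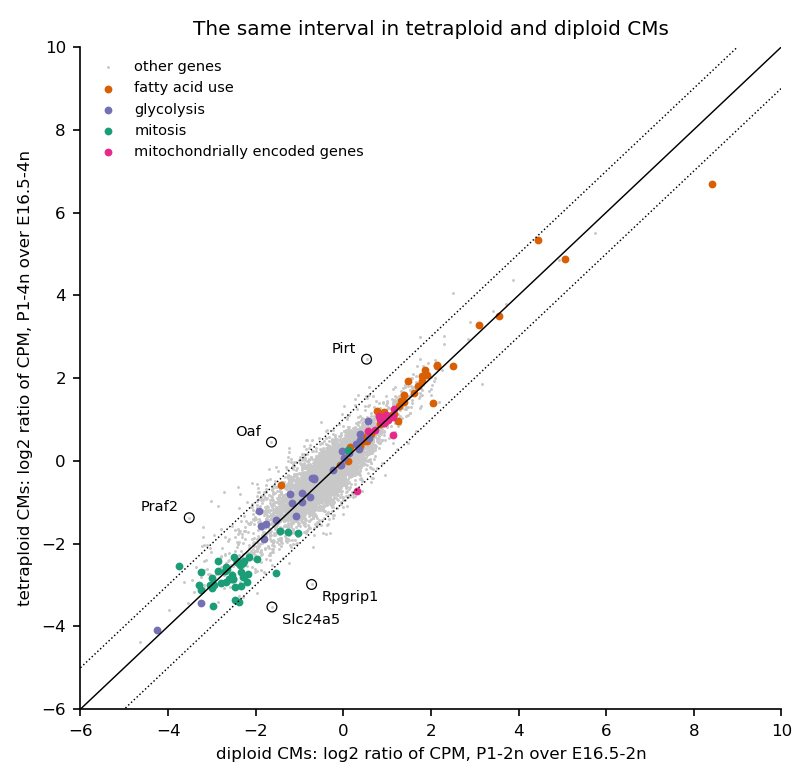
The log2 ratio of CPM across birth in diploid CMs (horizontal) and tetraploid CMs (vertical) for genes compared in both, with the line of equal ratios, dotted lines at a difference of 1 and the same 4 lists in colour; Ucp3 and Fbp2, without a UMI in E16.5-2n, are not drawn. Most genes lie along the line, and Rpgrip1, Slc24a5, Praf2, Oaf and Pirt lie outside the dotted lines.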

How the data were processed

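Single-cell RNA-seq libraries were made with the 10x Genomics Single Cell 3′ v2 kit from CMs sorted as 2n or 4n. The authors deposited UMI counts of each gene in each cell, not normalized, made with Cell Ranger (version not given in the sources used here), which aligns with STAR, on GRCm38. Strand and exonic or intronic position were used in the counting, per the labels and the study's methods. Seurat 2.3.0, named in the submitters' processing notes, was not used here. The members, gene lists and settings were chosen with earlier results of these data known. The 6 libraries hold 27998 genes each. UMIs were summed over CMs, scaled to CPM and compared as log2 ratios with exact (Clopper-Pearson) 95% intervals of the UMI split, which cover counting error only. Differences between 4n and 2n ratios carry Wald intervals. Shares of CMs carry exact intervals over the CMs of 1 library, which are not replicates. With 1 library per group no test was made, and 2-fold served as the threshold. Genes named are all members of the gene lists, form pairs and markers, the 15 highest and 15 lowest ratios, the 10 largest gains and 10 largest losses in CPM, and the 10 largest 4n minus 2n differences in each direction. Of the lists, 12 genes belong to more than 1. Some items that this rule takes are not reported here. Rpl3l was named after its value was seen. Duplicated symbols (56) were kept apart by gene identifier. Promoters came from RefSeq (GRCm38.p6), in which 7665 of 9958 tested genes matched. Python 3.11.15 with numpy 2.4.6, scipy 1.17.1 and pandas 2.3.3 was used, and the calculation was tested on simulated counts. Alternatives covered the scaling, the count minimum, thinning, the choice of CMs and the fold threshold.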

Additional observations from a re-analysis of the deposited data

Results flagged for a closer look

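Genes of the lists, form pairs, markers and rankings that were compared in both 4n and 2n CMs, 534 together, were looked at for opposite directions. The set includes genes named for their large 4n minus 2n difference, Oaf among them. Of the 534 genes, 13 lay on opposite sides of 0 on the CPM scale and 2 did so also after centring on the median of all genes. The difference between 4n and 2n was not tested, since each side has 1 library.

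Oaf, a gene of a secreted protein, had a log2 ratio of 0.45 (0.11 to 0.81) in 4n CMs, at 7.88 CPM at E16.5 and 10.8 at P1. In 2n CMs it had one of -1.64 (-2.24 to -1.07), at 6.63 and 2.13 CPM. The difference was 2.09.

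Col6a1, a collagen that fibroblasts mainly make, had a log2 ratio of 0.39 (0.21 to 0.58) in 4n CMs and of -0.76 (-1.16 to -0.37) in 2n CMs, a difference of 1.16. It stood at 27.4 and 36 CPM in 4n and 9.50 and 5.59 CPM in 2n. The summed fibroblast markers were 796 and 947 CPM in 4n and 133 and 142 CPM in 2n, and their part in this difference was not tested.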

How the results depend on the processing

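The medians of fatty acid use, glycolysis and mitosis and both counts kept their direction under the settings tried. List medians near 0 did not: those of calcium cycling, sarcomere, creatine transfer, ketone body use, autophagy, cardiac transcription factors and amino acid stress, all between -0.26 and -0.03, were above 0 under the median of ratios (0.22, 0.22, 0.27, 0.21, 0.18, 0.04 and 0.06). That setting subtracts the median of all genes (-0.30) from every log2 ratio, so that any list median between -0.30 and 0 turns positive by construction. The collagen median, 0.31, was -0.17 without other cell types' marker UMIs and -0.14 without mitosis UMIs, and that of the glucocorticoid genes, -0.54, was 0.12 with a minimum of 1000 UMIs. The count of genes at least 2-fold higher, 287, was 504 after scaling by the median of ratios, 435 with the 50 most abundant genes out of the totals, 567 with a minimum of 20 UMIs, 88 with 1000, 156 and 186 with CMs thinned to 1000 and 2000 UMIs, 112 in CMs without other cell types' marker UMIs, 95 in CMs without a mitosis UMI, and 653 at 1.5-fold. The count lower, 1159, was 674, 763 and 327 under the median of ratios, with 50 genes out and with 1000 UMIs, 321 without mitosis UMIs and 3030 at 1.5-fold. Genes tested numbered 12416 with 20 UMIs, 3422 with 1000, 6798 and 7663 after thinning, 4822 without other markers and 3928 without mitosis UMIs, against 9958. CMs without other markers or without mitosis UMIs were chosen after thinning to 1000 UMIs each. The median of all genes was 0 under the median of ratios, by construction. The median of fatty acid use, 1.35, was 1.66 under the median of ratios, 1.58 with 50 genes out, 1.25 with 1000 UMIs, 1.24 after thinning to 1000, 1.14 without other markers and 1.15 without mitosis UMIs. That of glycolysis, -0.78, was -0.48, -0.43 with 1000 UMIs, -0.46 after thinning to 1000, -0.47 without other markers and -0.52 without mitosis UMIs. That of mitosis, -2.76, was -2.46 under the median of ratios, and could not be had in CMs without a mitosis UMI. The correlation of 4n and 2n ratios was 0.835 with 20 UMIs. The cause of these shifts was not tested. Without the CM filter the counts were 284 and 1177, and with at least 2 UMIs of each marker 285 and 1168. With 50 genes out, 36.3% of the genes past 2-fold were higher. For named genes, 2384 values past 2-fold were set beside their values under other settings, all kept their sign and 2311 stayed past 2-fold. Part of this was fixed in advance. A count minimum of 20 or 1000 UMIs leaves each ratio as it was (229 and 123 of these values). The median of ratios and the changed totals shift all genes by 1 amount smaller than 2-fold, so that no sign could change there. No paired analysis was possible because each group has 1 library, so that the groups share fewer than 2 replicate numbers.

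Ppara, Cpt1b and Fgf21 had too few UMIs to be compared, and the ratios of Ucp3, Fbp2 and Car4 rest on 0 to 2 UMIs in E16.5-4n. Cpt1b also made up only 0.79% of the UMIs of Cpt1a and Cpt1b in P5-4n. The cause of these low counts was not tested.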

Other observations

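Other gene groups also moved in both ranges of mitosis UMIs, in CMs thinned to 2000 UMIs. Imprinted and fetal growth genes stood at 5469 CPM at E16.5 and 3149 at P1 in CMs with at least 10 mitosis UMIs (log2 ratio -0.80), and at 5117 and 2033 CPM in the rest (-1.33). Hypoxia genes stood at 2581 and 1564 CPM in the former (-0.72) and at 2484 and 1400 CPM in the latter (-0.83). Tubulins, which form the spindle, stood at 10214 and 7572 CPM in the former (-0.43) and at 3433 and 1149 in the latter (-1.58). These are single values per library, with no replicate.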
